A study of Saccharomyces cerevisiae with 12 samples.

Results

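Small nuclear and small nucleolar RNA genes of Saccharomyces cerevisiae were examined on Affymetrix Yeast S98 arrays. The members were all genes whose probe set was annotated to a single symbol of the form SNR followed by digits and an optional letter, with the brightest probe set kept where a gene had more than 1. This gave 60 genes of 5656 tested. By RefSeq biotype in assembly R64, 57 encode small nucleolar RNAs (snoRNAs) and 3 encode spliceosomal small nuclear RNAs (snRNAs). Of the snoRNAs, 40 are of the box C/D class and 17 of the box H/ACA class, assigned from general knowledge. The R64 table holds 79 SNR genes by this rule, and the other 19 (among them SNR10, SNR17B, SNR18, SNR24 and SNR30) were not analysed here. U5, listed as SNR7-L, is spelled outside the rule and is given beside the snRNAs only.

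The study compared 4 groups of diploid yeast with 3 cultures, and so 3 arrays, in each. The groups were the gpa2 deletion strain MLY132 after 2 h in SLAM, MLY132 in YPM, the wild-type strain MLY61 after 2 h in SLAM, and MLY61 in YPM. YPM is a rich maltose medium and SLAM a defined maltose medium with 50 µM ammonium sulfate as its nitrogen source, so the media differ in more than nitrogen. Both strains are MATa/alpha and homozygous for ura3-52, and MLY132 is also homozygous for a deletion of GPA2 marked with a G418 resistance cassette. Each genotype is represented by 1 strain. Values are log2 readings from the deposited table, and RNA had been amplified from a poly-T primer. In bulk RNA, fewer cells of a type and less RNA per cell cannot be told apart.

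Box C/D snoRNAs guide ribose methylation of ribosomal RNA, box H/ACA snoRNAs guide the conversion of uridine to pseudouridine, and a few members of each class act in cleavage of the ribosomal precursor. Most yeast snoRNAs are transcribed from genes of their own, some are cut from a shared precursor that carries several of them, and a few lie in introns of protein-coding genes. Their mature forms carry no long poly(A) tail, while precursors and products marked for trimming or decay by the nuclear exosome can carry one. The snRNAs form the core of the spliceosome. Which of these RNA forms the probe sets read was not measured here.

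The readings of these genes were low. A mean over 12 arrays placed the median member at percentile 17.5 of all genes, and 47 of 60 members (78.3%) lay below the median gene. GPA2 gave a guide to background, since its highest reading on a deletion array was 5.60, although that is a different probe set. Of the members, 13 averaged below 5.60 in all 4 groups, 9 in some groups and 38 in none; of all genes, 5.87% averaged below it in all 4. SNR67 was the brightest member, at percentile 92.3, and SNR79 and SNR65 were the dimmest, at percentiles 0.0707 and 0.124. A level cannot be set against that of another probe set, so these ranks describe signal and not abundance.

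GPA2, the targeted gene, read 5.42, 5.14 and 5.49 in gpa2 SLAM and 5.60, 5.20 and 5.48 in gpa2 YPM, against 11.10, 11.00 and 10.56 in WT SLAM and 10.27, 9.70 and 10.00 in WT YPM. Every deletion array was below every wild-type array. URA3 averaged between 4.33 and 5.12 in the 4 groups, and 5 of 10 haploid-specific genes averaged below 5.60 in all of them. Of these 10, FUS1, a cell fusion gene, was higher in WT SLAM than in WT YPM (1.10, adjusted p = 0.017, a lower bound) and no other passed. Of all genes, 5.23% were higher in WT SLAM. Array medians lay between 7.33 and 7.50. WT SLAM replicate 2 stood apart from its group: 21.7% of all genes and 17 of 60 members differed by more than 1 log2 unit from the mean of the other two arrays, where the other WT SLAM arrays had 7.57% and 9.21% of genes. In gpa2 YPM the largest such share was replicate 3, with 7.67% of genes and 12 members, against 2.74% and 3.91% of genes for the other two. In gpa2 SLAM the shares were larger, at 13.6% of genes for replicate 3 and 10.6% for replicate 2, against 1.98% for replicate 1. Counts below are also given without WT SLAM replicate 2 and gpa2 YPM replicate 3, which the text calls the arrays that stood apart. The gpa2 SLAM arrays were kept in that setting, and each array was also left out alone.

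**Figure D1:**
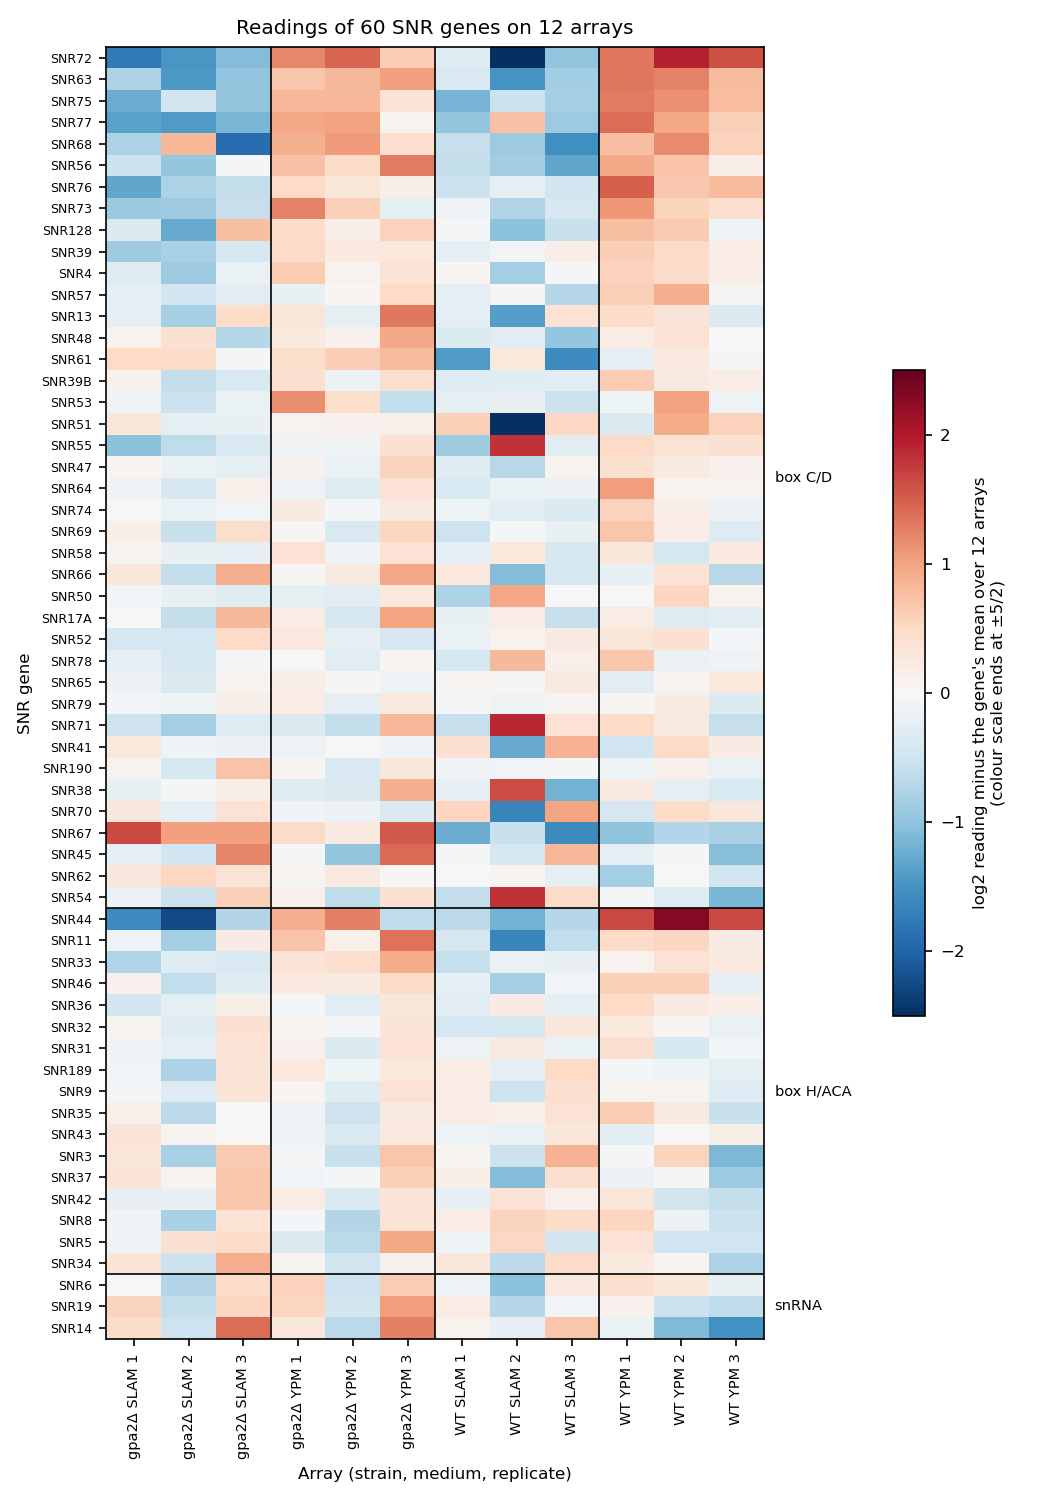
Log2 reading of each of 60 SNR genes (rows, by class and then by the sum of the changes between media in both strains) on each of 12 arrays (columns), minus the gene's own mean over 12 arrays; colours end at 2.5 log2 units on either side. The top rows of the box C/D block and SNR44 are blue in both SLAM groups and red in both YPM groups, SNR67 is red on the 6 gpa2 arrays, and WT SLAM replicate 2 has cells unlike the other arrays of its group.

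In the gpa2 deletion strain, 10 of 60 members were lower in SLAM than in YPM and 0 were higher (limma, Benjamini-Hochberg adjusted p under 0.05 over 5656 genes). The share lower, 16.7%, stands beside 14.8% of all genes that were lower in this comparison, while 13.4% of all genes were higher and 28.1% passed in either direction. No member was higher at an unadjusted p under 0.05 either, where 14 were lower (share of all genes not counted). The 10 were SNR72, SNR44, SNR77, SNR63, SNR75, SNR56, SNR73, SNR76, SNR33 and SNR39, with log2 changes between -2.52 and -1.04. The median change over all 60 members was -0.19, against 0.01 over all genes, and 39 members changed by no more than 0.5 log2 units. Without both arrays that stood apart, 12 members were lower and 1, SNR67, was higher (21.7% together, beside 35.1% of all genes either way), and the 10 were all among the 12.

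In the wild type, 8 of 60 members (13.3%) were lower in SLAM and 0 were higher, beside 7.34% of all genes lower, 5.23% higher and 12.6% either way. At an unadjusted p under 0.05, 18 members were lower and 0 higher. The share of all genes at that unadjusted threshold was not counted, so this count describes members only. The 8 were SNR72, SNR44, SNR63, SNR75, SNR68, SNR56, SNR76 and SNR11, with changes between -2.88 and -1.30. The median over all members was -0.24, against -0.05 over all genes. Without both arrays that stood apart, 11 members were lower and 0 higher (18.3%, either way 27% of all genes), of which 6 were among the 8, and SNR11 (adjusted p = 0.0516) and SNR68 (adjusted p = 0.0503) fell short. Single arrays weighed on this count: 4 members were called without WT YPM replicate 2, 5 without WT SLAM replicate 3 and 11 without WT SLAM replicate 2. The count over all genes moved with it, to 62 (1.1%), 107 (1.89%) and 1414 (25%) of 5656 without those same arrays.

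**Figure D2:**
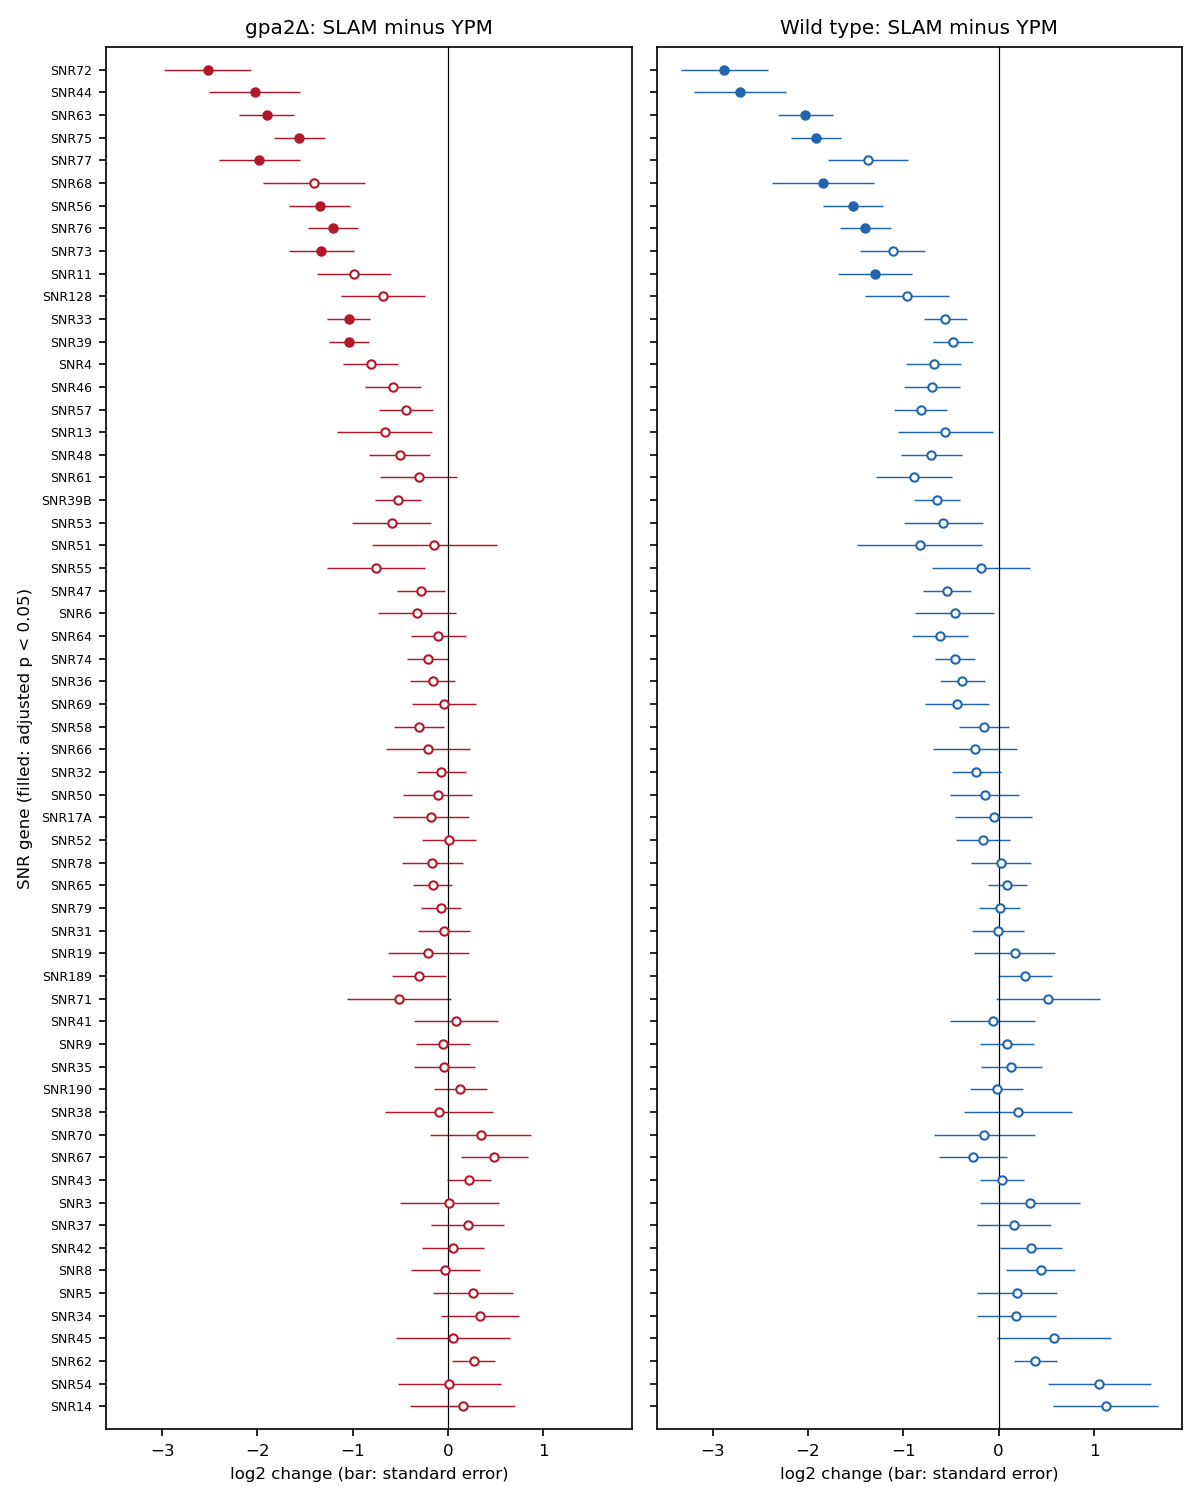
Log2 change of each of 60 SNR genes, SLAM minus YPM, with its standard error as a bar, in the gpa2 deletion strain (left) and the wild type (right); filled points passed at adjusted p under 0.05 and open points did not. The filled points, 10 on the left and 8 on the right, all lie below 0, and most open points lie within 0.5 log2 units of 0.

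The genes called in both strains were SNR72, SNR44, SNR63, SNR75, SNR56 and SNR76, each tested against that strain's own YPM arrays. Across both strains, 12 members passed in at least 1 medium comparison. Groups did not overlap, with SLAM lower, for 14 members in gpa2 (all genes 21.7%) and for 18 in the wild type (all genes 20.4%). With SLAM higher, they did not overlap for 1 member in gpa2, SNR62 (all genes 22.9%), and for 0 in the wild type (all genes 15.2%). In 9 members all 6 SLAM arrays lay under all 6 YPM arrays: SNR33, SNR39, SNR4, SNR44, SNR56, SNR63, SNR72, SNR75 and SNR76. This is 15% of members, beside 6.93% of all genes. SNR4, a box C/D RNA that guides acetylation of small-subunit rRNA, was among these although it passed in neither strain, with -0.81 (adjusted p = 0.0542) in gpa2 and -0.68 (adjusted p = 0.129) in the wild type.

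Of the 12 genes called between media, 5 come from a single unit of 7 box C/D snoRNAs that are cut from a shared precursor, in the order SNR78, SNR77, SNR76, SNR75, SNR74, SNR73 and SNR72. SNR72, which guides methylation of large-subunit rRNA, read 5.74, 6.04 and 6.42 in gpa2 SLAM against 8.70, 8.95 and 8.11 in gpa2 YPM. In the wild type SNR72 read 7.20, 4.99 and 6.50 in SLAM against 8.83, 9.42 and 9.08 in YPM. The SLAM arrays were below the YPM arrays in both strains, and the spread was widest in WT SLAM, where replicate 2 was lowest. The change of SNR72 was -2.52 ± 0.46 (SE, adjusted p = 0.00236) in gpa2, 5.75-fold lower, and -2.88 ± 0.46 (adjusted p = 0.00592) in the wild type, 7.35-fold lower.

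SNR75, also a guide for the large-subunit rRNA, read 6.72, 7.51 and 6.98 in gpa2 SLAM against 8.80, 8.80 and 8.31 in gpa2 YPM, and 6.81, 7.44 and 7.14 in WT SLAM against 9.27, 9.12 and 8.74 in WT YPM. The groups of SNR75 did not overlap in either strain. It changed by -1.56 ± 0.27 (adjusted p = 0.00189) in gpa2 and -1.92 ± 0.27 (adjusted p = 0.00344) in the wild type. SNR76 had 5.30, 5.80 and 6.00 in gpa2 SLAM against 7.09, 6.89 and 6.74 in gpa2 YPM, and 6.05, 6.39 and 6.12 in WT SLAM against 8.10, 7.27 and 7.39 in WT YPM. Its groups did not overlap either, and its changes were -1.21 ± 0.26 (adjusted p = 0.00542) and -1.40 ± 0.26 (adjusted p = 0.0109).

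SNR77, a guide for the small-subunit rRNA, passed in gpa2 and narrowly missed in the wild type. It read 7.52, 7.45 and 7.72 in gpa2 SLAM against 9.82, 9.86 and 8.95 in gpa2 YPM, a change of -1.98 ± 0.42 (adjusted p = 0.00495). In WT SLAM it read 7.89, 9.59 and 7.96, against 10.26, 9.83 and 9.46 in WT YPM, so that replicate 2 of WT SLAM lay inside the YPM range and the change of -1.37 missed the threshold (adjusted p = 0.0516). Without that array the wild-type change was -1.93 (adjusted p = 0.0025). SNR73, another guide for the large-subunit rRNA, read 5.78, 5.83 and 6.14 in gpa2 SLAM against 7.95, 7.31 and 6.48 in gpa2 YPM, and 6.62, 5.95 and 6.29 in WT SLAM against 7.81, 7.27 and 7.12 in WT YPM. Neither pair of groups overlapped. SNR73 changed by -1.33 ± 0.34 (adjusted p = 0.0126) in gpa2, a call lost without gpa2 YPM replicate 1 (-0.98, adjusted p = 0.0593), and by -1.11 ± 0.34 (adjusted p = 0.0511) in the wild type. SNR74 and SNR78, the remaining members, averaged below 5.60 in all groups and showed no change that passed.

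The unit lies between SEC59 and BUD22 in the gene order of R64. SEC59, which encodes dolichol kinase, gave -0.52 (adjusted p = 0.0953) in gpa2 and 0.01 (adjusted p = 0.98) in the wild type. BUD22, a gene needed for small ribosomal subunit production, fell by 1.32 on the log2 scale in gpa2 (adjusted p = 0.00805), while in the wild type its change was -0.75 (adjusted p = 0.12). The other 4 units hold 10 members between them: SNR190 and SNR128, SNR41 with SNR70 and SNR51, SNR57 with SNR55 and SNR61, and SNR67 with SNR53. None of these 10 passed in either medium comparison, although SNR61 passed in the wild type without WT SLAM replicate 2 (-1.47, adjusted p = 0.0025).

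**Figure D3:**
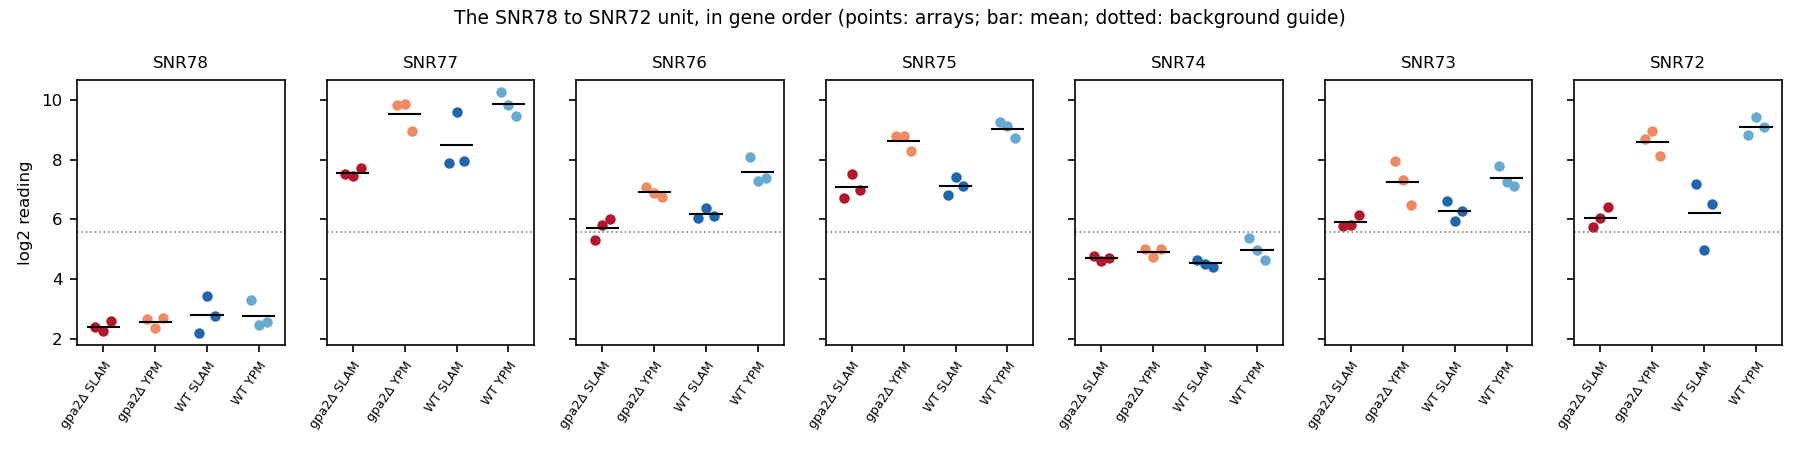
Log2 readings of the 7 snoRNAs of the SNR78 to SNR72 unit, in gene order, in the 4 groups (points, single arrays; bars, means of 3 arrays; dotted line, the highest GPA2 reading on a deletion array, 5.60). SNR77, SNR76, SNR75, SNR73 and SNR72 have lower means in SLAM than in YPM in both strains, with 1 WT SLAM point of SNR77 at 9.59 among the YPM points, and SNR78 and SNR74 lie under the dotted line.

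Of the members, 4 sit in introns, and each is given here beside its host gene. SNR44, a box H/ACA RNA in an intron of RPS22B, read 6.05, 5.38 and 6.91 in gpa2 SLAM against 8.52, 8.90 and 6.99 in gpa2 YPM. In the wild type SNR44 read 6.98, 6.44 and 6.93 in SLAM against 9.29, 9.92 and 9.28 in YPM. The groups did not overlap, though gpa2 YPM replicate 3 lay just above the highest SLAM array. SNR44 fell by 2.03 ± 0.48 on the log2 scale (adjusted p = 0.00833) in gpa2 and by 2.71 ± 0.48 (adjusted p = 0.00886) in the wild type, where the call was lost without WT YPM replicate 2 (-2.50, adjusted p = 0.0547).

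RPS22B, the host, encodes a small-subunit ribosomal protein. It read 8.73, 8.66 and 9.63 in gpa2 SLAM against 12.87, 12.73 and 11.63 in gpa2 YPM, and 9.32, 9.66 and 8.66 in WT SLAM against 12.40, 12.68 and 12.73 in WT YPM. Both RNAs of this locus were low on the SLAM arrays of both strains, and both had their lowest gpa2 YPM reading on replicate 3. RPS22B changed by -3.40 in gpa2 and -3.39 in the wild type (adjusted p = 0.000278 and 0.000689), and its other probe sets gave -3.80 and -3.69 in gpa2 and -4.54 and -3.88 in the wild type.

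SNR39, a box C/D RNA in an intron of the large-subunit protein gene RPL7A, read 5.85, 5.93 and 6.31 in gpa2 SLAM against 7.22, 6.99 and 7.01 in gpa2 YPM, and 6.50, 6.67 and 6.90 in WT SLAM against 7.37, 7.22 and 6.93 in WT YPM. It was lower in gpa2 SLAM (-1.04 ± 0.21, adjusted p = 0.00381), and its wild-type groups were separated by a narrow gap with a change of -0.48 that did not pass (adjusted p = 0.139). RPL7A changed by -2.54 in gpa2 and -1.51 in the wild type on its brightest probe set, and both passed. Its other probe sets gave -3.13 and -1.08 in gpa2 and -1.97 and -0.56 in the wild type. With the dimmest of them the wild-type call was lost (adjusted p = 0.228), as it was without WT SLAM replicate 3 (-1.31, adjusted p = 0.0724) or WT YPM replicate 2 (-1.39, adjusted p = 0.0812).

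SNR38 and SNR54 passed in neither strain. SNR38, in an intron of the translation elongation factor gene TEF4, changed by -0.10 in gpa2 and 0.21 in the wild type (adjusted p = 0.925 and 0.842), while TEF4 changed by -2.75 and -1.81 (adjusted p = 0.00286 and 0.0418). SNR54, in an intron of IMD4, which belongs to the IMP dehydrogenase family of guanine nucleotide synthesis, changed by 0.01 and 1.06 (adjusted p = 0.989 and 0.199), while IMD4 changed by -2.88 and -1.97. Both host calls held in gpa2 under all 24 alternatives, but each held under only 14 of 24 in the wild type. Without WT SLAM replicate 3, for example, TEF4 changed by -1.13 (adjusted p = 0.135) and IMD4 by -1.25 (adjusted p = 0.131) there. SNR54 averaged 5.36 in gpa2 SLAM, 5.34 in gpa2 YPM and 4.89 in WT YPM, all below the background guide. In WT SLAM it averaged 5.95, and its highest array was WT SLAM replicate 2, at 7.19. Neither change of SNR54 was therefore read above the guide in both media. WT SLAM replicate 2 was also the highest array of SNR38, at 8.29. The hosts of all 8 intron-encoded snoRNAs known to the list, 4 of which carry a snoRNA not analysed here, were lower in gpa2 SLAM, and 6 of 8 were lower in WT SLAM, EFB1 and NOG2 being the others (all genes 14.8% and 7.34% lower). Leaving out 1 array at a time gave 7 to 8 hosts in gpa2 and 1 to 6 in the wild type, the lowest without WT YPM replicate 2.

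**Figure D4:**
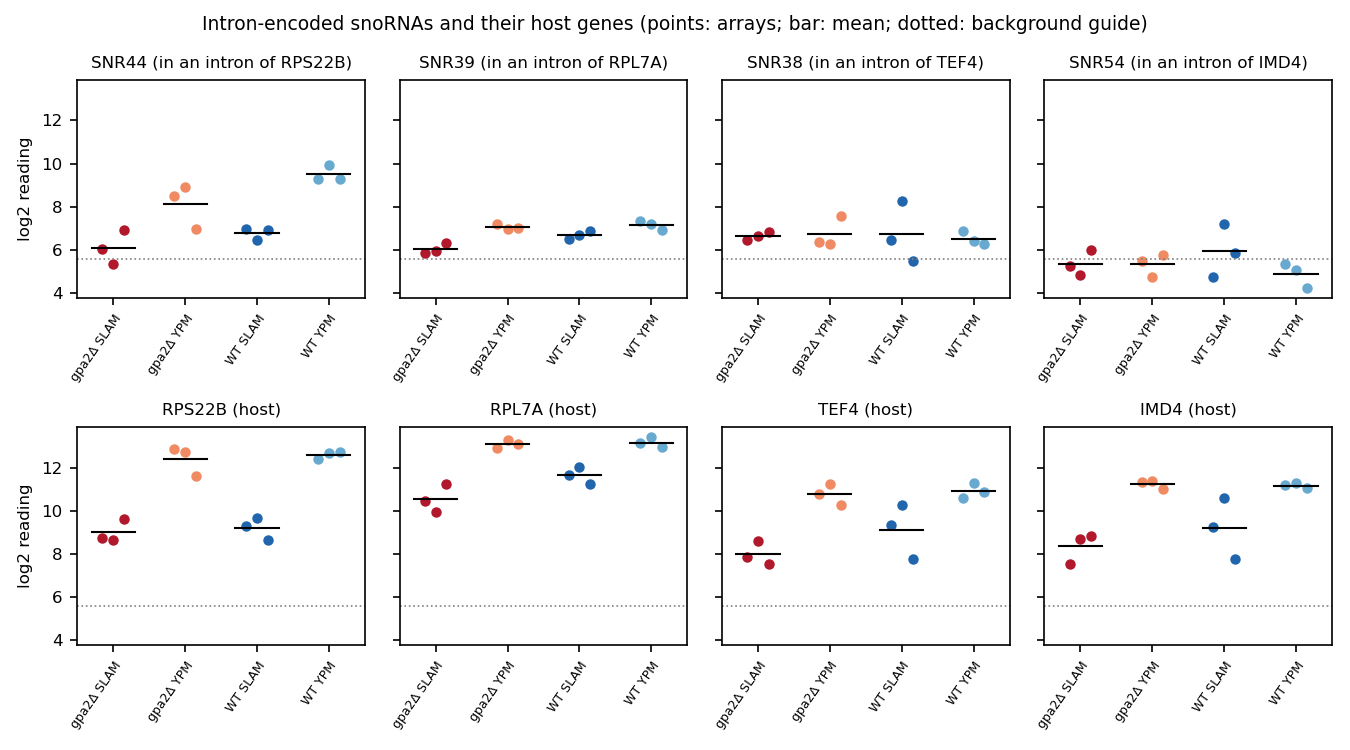
Log2 readings of 4 intron-encoded snoRNAs (top) and of the gene that holds each of them (bottom) in the 4 groups (points, single arrays; bars, means of 3 arrays; dotted line, background guide of 5.60). All 4 hosts have lower means in SLAM in both strains; SNR44 does too, SNR39 does by less, and SNR38 and SNR54 do not, with WT SLAM replicate 2 at 8.29 for SNR38.

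The remaining called members are transcribed from genes of their own. SNR63, a box C/D guide for the large-subunit rRNA, read 5.08, 4.40 and 4.87 in gpa2 SLAM against 6.54, 6.66 and 6.86 in gpa2 YPM, and 5.47, 4.37 and 4.98 in WT SLAM against 7.17, 7.08 and 6.64 in WT YPM. All SLAM readings of SNR63 were at or below the background guide and all YPM readings above it. If the guide holds for this probe set, its changes of -1.90 (adjusted p = 0.00103) and -2.03 (adjusted p = 0.00389) are lower bounds in size. SNR56, a guide for the small-subunit rRNA, read 5.15, 4.72 and 5.63 in gpa2 SLAM against 6.41, 6.14 and 6.99 in gpa2 YPM, and 5.09, 4.81 and 4.38 in WT SLAM against 6.63, 6.40 and 5.84 in WT YPM. Its groups did not overlap, and its changes of -1.35 (adjusted p = 0.00846) in gpa2 and -1.53 (adjusted p = 0.0156) in the wild type are lower bounds too. The wild-type call of SNR56 was lost without WT SLAM replicate 3 (adjusted p = 0.0707) or WT YPM replicate 2 (adjusted p = 0.0757).

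SNR33, a box H/ACA guide for the large-subunit rRNA, was lower in gpa2 (-1.04 ± 0.23, adjusted p = 0.00539) with 7.79, 8.24 and 8.15 in SLAM against 8.87, 8.97 and 9.47 in YPM. In the wild type SNR33 read 7.95, 8.36 and 8.33 in SLAM against 8.62, 8.91 and 8.79 in YPM, a smaller difference without overlap (-0.56, adjusted p = 0.117). SNR68, a box C/D guide for the large-subunit rRNA, read 5.79, 5.46 and 4.82 in WT SLAM against 7.12, 7.55 and 6.92 in WT YPM, and SNR11, a box H/ACA guide, read 8.65, 7.43 and 8.46 in WT SLAM against 9.55, 9.61 and 9.27 in WT YPM. Neither overlapped, and both passed in the wild type, SNR68 at -1.84 (adjusted p = 0.0435, a lower bound) and SNR11 at -1.30 (adjusted p = 0.0477). Both were near the threshold, since without single arrays the adjusted p reached 0.153 for SNR68 and 0.147 for SNR11. In gpa2 the change was -1.41 for SNR68 (adjusted p = 0.0698) and -0.99 for SNR11 (adjusted p = 0.0774). Members called in a single strain were not shown to differ between strains, as the test of that difference below passed for none.

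Several members lie beside genes for ribosomal proteins, a grouping made after the values were seen. In R64, 14 members had a measured ribosomal protein gene next to them or around them, 10 such genes in all. All 10 were lower in gpa2 SLAM and 8 of 10 were lower in WT SLAM (all genes 14.8% and 7.34% lower). Of the 14 snoRNAs, 3 were called lower in gpa2 (SNR39, SNR44 and SNR63) and 3 in the wild type (SNR11, SNR44 and SNR63), with a median change of -0.60 in each strain. Over all 60 members the shares lower were 16.7% and 13.3%, with medians of -0.19 and -0.24. SNR13, for example, a box C/D guide next to RPL27B, had -0.67 in gpa2 and -0.56 in the wild type (adjusted p = 0.345 and 0.475), where RPL27B had -3.12 and -1.58 (adjusted p = 0.000596 and 0.0322).

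By class, 8 of 40 box C/D and 2 of 17 box H/ACA members were lower in gpa2, with medians of -0.29 and -0.04. In the wild type 6 of 40 and 2 of 17 were lower, with medians of -0.47 and 0.09. Of the box C/D calls, 5 in gpa2 and 3 in the wild type came from the single SNR78 to SNR72 unit. Members of that unit share a precursor, so the class counts are not counts of separate loci. Of all genes, 14.8% were lower in gpa2 and 7.34% in the wild type, and the class difference was not tested. The RNAs that act in cleavage of the ribosomal precursor were represented by SNR17A, a U3 gene, and SNR128, the U14 gene. SNR17A changed by -0.18 in gpa2 and -0.05 in the wild type, and SNR128 by -0.68 and -0.96, none of which passed (adjusted p = 0.776, 0.945, 0.276 and 0.157). The steadiest members over 12 arrays were SNR79, SNR65 and SNR43, of which SNR79 and SNR65 were also the dimmest, and the most variable were SNR72, SNR44 and SNR67.

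None of the 3 snRNA genes passed in any comparison. SNR6, the U6 gene, which is transcribed by RNA polymerase III, read 6.92, 6.20 and 7.39 in gpa2 SLAM, 7.51, 6.41 and 7.57 in gpa2 YPM, 6.83, 5.90 and 7.18 in WT SLAM and 7.33, 7.21 and 6.75 in WT YPM. Its groups overlapped in every comparison, and its changes between media were -0.33 and -0.46 in gpa2 and the wild type. SNR14, the U4 gene, read 8.71, 7.74 and 9.66 in gpa2 SLAM, 8.54, 7.59 and 9.52 in gpa2 YPM, 8.34, 8.06 and 8.95 in WT SLAM and 8.08, 7.16 and 6.74 in WT YPM. WT YPM was the lowest group of SNR14, with a change between media of 1.12 in the wild type (adjusted p = 0.182) and a strain difference in YPM of 1.22 (unadjusted p = 0.0465, adjusted p = 0.994). SNR19, the U1 gene, changed by -0.21 in gpa2 and 0.17 in the wild type. SNR7-L averaged 7.62 in gpa2 SLAM, 7.61 in gpa2 YPM, 7.38 in WT SLAM and 6.47 in WT YPM, and it passed in no comparison either.

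Between strains in SLAM, 1 member was higher in the gpa2 deletion and 0 were lower, beside 1.08% of all genes higher, 1.73% lower and 2.81% either way. At an unadjusted p under 0.05 these counts were 2 and 2, with the share of all genes not counted. The gene was SNR67, a box C/D guide for the large-subunit rRNA. It read 12.55, 11.92 and 11.94 in gpa2 SLAM against 9.67, 10.36 and 9.31 in WT SLAM, and 11.39, 11.13 and 12.44 in gpa2 YPM against 9.89, 10.17 and 10.08 in WT YPM. SNR67 was the one member with all 6 gpa2 arrays above all 6 wild-type arrays, as were 0.194% of all genes. The difference was 2.36 ± 0.35 (SE, adjusted p = 0.0201) in SLAM, 5.13-fold higher in gpa2, and 1.61 ± 0.35 in YPM, 3.04-fold, which did not pass over all genes (unadjusted p = 0.000679, adjusted p = 0.994).

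The SLAM call of SNR67 was lost without gpa2 SLAM replicate 1 (2.15, adjusted p = 0.125), with only the 6 arrays compared (2.36, adjusted p = 0.181) and at a threshold of 0.01. Over 25 alternatives the difference lay between 2.13 and 2.84, and 22 of them kept the call. SNR53, the other RNA of its unit, averaged 3.23 in gpa2 SLAM, 3.82 in gpa2 YPM, 3.17 in WT SLAM and 3.75 in WT YPM, all below the background guide. RML2, the nearest protein-coding gene on one side, which encodes a mitochondrial ribosomal protein, differed by -0.17 between strains in SLAM (adjusted p = 0.82). SNR67 and GPA2 lie on the same chromosome with 82 annotated genes between them in R64. Whether the strains differ in sequence at SNR67 was not tested.

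SNR61, a guide for the large-subunit rRNA, was second in SLAM: it read 8.67, 8.66 and 8.13 in gpa2 SLAM against 6.77, 8.44 and 6.60 in WT SLAM, where replicate 2 alone overlapped. Its difference of 1.22 did not pass (adjusted p = 0.0986), and without WT SLAM replicate 2 it was 1.80 (adjusted p = 0.0144). SNR39 and SNR77 had the smallest p among members that were lower, at -0.66 (adjusted p = 0.0898) and -0.92 (adjusted p = 0.218). Without both arrays that stood apart, 2 members, SNR61 and SNR67, were higher in gpa2 SLAM (all genes 1.27% either way).

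**Figure D5:**
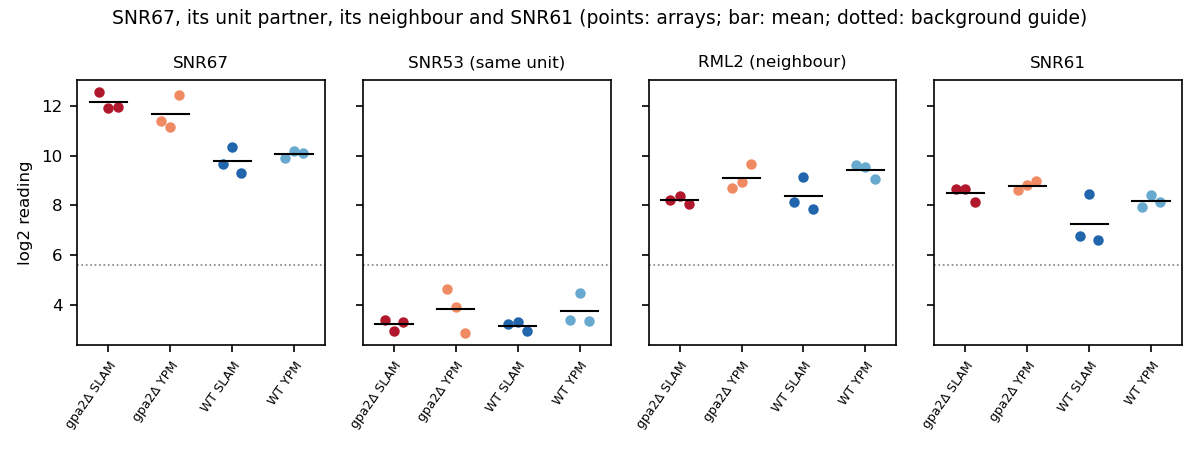
Log2 readings of SNR67, SNR53 of the same unit, the neighbouring gene RML2, and SNR61 in the 4 groups (points, single arrays; bars, means of 3 arrays; dotted line, background guide of 5.60). All 6 gpa2 points of SNR67 lie above its 6 wild-type points, SNR53 lies below the guide, and for SNR61 the WT SLAM point at 8.44 lies with the gpa2 SLAM points while the other two are at 6.77 and 6.60.

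In YPM, 0 members differed between the strains by limma, and GPA2 was the only gene of all 5656 that did (0.0177%). At an unadjusted p under 0.05, 3 members were higher in gpa2 and 2 were lower: SNR67, SNR14 and SNR62, and SNR44 and SNR76. The share of all genes at that threshold was not counted, and the smallest adjusted p among members was 0.994. These 5 are therefore not set apart from genes at large. SNR44 differed by -1.36 (unadjusted p = 0.0147, adjusted p = 0.994), and SNR76 by -0.68 (unadjusted p = 0.0241, adjusted p = 0.994). SNR62 was dim in both strains, with a difference of 0.55. SNR61, SNR62 and SNR67 were the 3 members whose gpa2 YPM arrays all lay above the WT YPM arrays (all genes 5.99%).

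The responses to SLAM were compared between strains by the interaction term of the same limma fit. It passed for 0 members and for 0 of all genes (percent called 0), and 0 members had an unadjusted p under 0.05. The smallest adjusted p was 0.98 among members and 0.173 among all genes, and the member differences ran from -1.04 (SNR54) to 0.75 (SNR67). The standard error of these member differences had a median of 0.48 on the log2 scale.

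Within groups, the members moved together from array to array more than genes at large did. Of the 3 arrays of gpa2 SLAM, replicate 3 held the highest reading for 39 of 60 members (65.0%; all genes 31.3%), and replicate 2 the lowest for 40 (66.7%; all genes 35.5%). In gpa2 YPM, replicate 3 was highest for 43 members (71.7%; all genes 41.0%) and replicate 2 lowest for 39 (65.0%; all genes 27.5%). In WT YPM, replicate 1 was highest for 36 (60.0%; all genes 27.7%) and replicate 3 lowest for 41 (68.3%; all genes 27.6%). WT SLAM showed no single array of that kind, with 24 members highest and 27 lowest on replicate 2. The median member lay 0.27 above its group mean on gpa2 SLAM replicate 3 and 0.27 below it on replicate 2 (-0.27), where the medians of all genes were -0.08 and 0.02. This spread enters every standard error above, and its part in the results was not tested.

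Genes for the proteins that bind and process these RNAs were examined from lists. All 7 measured snoRNP core proteins were lower in gpa2 SLAM (all genes 14.8% lower), with a median change of -3.46, and 4 of 7 were lower in WT SLAM (all genes 7.34%), with a median of -1.38. The gpa2 count stayed at 7 when any 1 array was left out, while the wild-type count ran between 0, without WT YPM replicate 2 or 3, and 7, without WT SLAM replicate 2. NOP1, the box C/D methyltransferase fibrillarin, read 6.79, 6.61 and 6.70 in gpa2 SLAM against 10.93, 11.06 and 10.19 in gpa2 YPM, and 9.70, 9.82 and 7.49 in WT SLAM against 10.90, 11.24 and 11.14 in WT YPM. Its groups were far apart in gpa2, with a change of -4.03, and its wild-type change was -2.09 (adjusted p = 0.000425 and 0.0229). CBF5, the box H/ACA pseudouridine synthase, changed by -2.65 and -1.24 (adjusted p = 0.000425 and 0.0325).

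Between strains in SLAM, 6 of 7 core protein genes were lower in gpa2 (all genes 1.73%), NOP56 being the other. That count rested on single arrays: it was 0 without gpa2 SLAM replicate 1, 1 without WT SLAM replicate 2, WT YPM replicate 2 or WT YPM replicate 3, and 7 without WT SLAM replicate 3. With only the 6 arrays compared, 0 of the 7 passed, and GPA2 was the only gene of all that did. Of 11 assembly and cap factors, 2 were lower in each strain: RVB1 and SRP40 in gpa2, SHQ1 and SRP40 in the wild type (18.2% of the list, beside 14.8% and 7.34% of all genes lower). Of 18 genes of the nuclear exosome and its TRAMP cofactor, which trim snoRNA ends and degrade polyadenylated nuclear RNA, 7 were lower in gpa2 and 2 in the wild type, among them the helicase MTR4 (-1.63, adjusted p = 0.00833) in gpa2 and the nuclease DIS3 in both (-0.75 and -0.95). These are 38.9% and 11.1% of the list, beside 14.8% and 7.34% of all genes, and none of those 18 was higher. Leaving out 1 array at a time gave 3 to 10 and 0 to 5.

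Of 16 genes for snoRNA 3′ end formation and poly(A) addition, 1 was higher and 1 lower in gpa2, and 0 and 1 in the wild type. Of all genes, 13.4% were higher and 14.8% lower in gpa2, and 5.23% and 7.34% in the wild type. NRD1, which directs early termination of snoRNA transcription, read 10.85, 9.75 and 10.29 in gpa2 SLAM against 8.36, 8.90 and 8.04 in gpa2 YPM, a change of 1.86 ± 0.36 (adjusted p = 0.00328). In the wild type NRD1 changed by 1.14 (adjusted p = 0.0567). LHP1, the yeast La protein, which binds the ends of new polymerase III transcripts and of some snoRNA precursors, was lower in both strains, by -1.81 in gpa2 and -1.22 in the wild type. Among 13 proteins of the U6 and U4/U6 particles, LSM1 and LSM5 were lower in both strains (all genes 14.8% and 7.34% lower). PRP4 was higher in gpa2 (0.80, adjusted p = 0.00654, all genes 13.4% higher). LSM1 belongs to the cytoplasmic ring that shares subunits with the U6 ring. Of the other non-coding RNA genes on the list, RPR1, the RNase P RNA, and TLC1, the telomerase RNA, were measured and passed in no comparison.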

How the data were processed

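RNA from 12 cultures was hybridised to 12 arrays, 3 in each of 4 groups. The authors deposited log2 expression values; the tools listed in the submitters' processing notes are RMA, MAS5 and GCOS 1.2, with no role given, and no detection calls or depths are given in the sources used here. Control probe sets (60 of 9335) and probe sets without a single gene symbol were left out, and the brightest probe set per gene was kept (5656 genes), with no further normalization. Gene order and RNA biotypes came from RefSeq, assembly R64. The snoRNA classes, shared-precursor units, intron hosts and lists of protein genes came from general knowledge.

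The linear model had a mean for each of the 4 groups and used every array (limma 3.58.1 under R 4.3.3, 8 residual and 4.11 prior degrees of freedom), two-sided, with Benjamini-Hochberg adjustment over all 5656 genes and a threshold of 0.05. The median standard error was 0.29, and 0.34 among members; 3 arrays a group limit the precision. The fit was tested on simulated data. A change is called a lower bound where the lower group averaged no more than 5.60, which takes the GPA2 guide as background for every probe set. Replicate numbers come from the order of samples and only name arrays.

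Named were members that passed in any comparison, the smallest p where fewer than 3 passed, all snRNAs, intron-encoded members with their hosts, the 3 highest and 3 lowest SD, and passing list genes. Members and lists were chosen with earlier results of these data known.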

Additional observations from a re-analysis of the deposited data

How the results depend on the processing

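The settings tried were quantile normalization, values floored at 4.32 (percentile 10), median centring, all probe sets, the probe set of lowest mean, dropping probe sets with shared targets or the dimmest 33.3% of genes, only the arrays compared, array weights, a 2-fold filter, adjusted p under 0.01, robust moderation with a trend, and leaving out each array or both arrays that stood apart. No change in direction of a called value occurred under any of them. With array weights, which ranged from 0.152 to 4.18 and whose estimate stopped before its tolerance was reached, 18 members were called in gpa2 between media, 15 in the wild type, 5 between strains in SLAM, 2 in YPM and 2 for the difference of responses, beside 58.8%, 43.4%, 18.6%, 4.14% and 4.07% of all genes. With the dimmest genes left out, 18 members remained for testing, and 5 were called in gpa2 and 4 in the wild type (all genes 32.7% and 14.4%). At adjusted p under 0.01, 4 members were called in the wild type and 0 between strains in SLAM (all genes 1.24% and 0.0354%). With only the arrays compared the count between strains in SLAM was 0 (all genes 0.0177%). Without both arrays that stood apart it was 2 (all genes 1.27%). Leaving out 1 array at a time gave 9 to 13 calls in gpa2, 4 to 11 in the wild type and 0 to 2 between strains in SLAM. The shares of all genes ran from 16.7% to 34.6%, from 1.1% to 25% and from 0.0707% to 6.81%. SNR11 and SNR68 lost their wild-type calls under 14 and 13 alternatives. The cause of these lost or gained calls was not tested. The labels give no replicate number shared between groups, so no paired analysis was run. In both gpa2 groups replicate 3 was highest and replicate 2 lowest for most members. Whether arrays of the same order share a culture or a batch was not tested. Most members read low, so a change below the background guide is uncertain. That guide comes from the GPA2 probe set, and the background of each member's own probe set was not measured. The scale on which the deposited values were summarised stays unknown.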
